A study of Mus musculus with 16 samples.

Results

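The genes examined here encode 9 transcription factors and cofactors that are known for their use in blood progenitors: the ETS factors *Spi1* (PU.1) and *Erg*, the basic helix-loop-helix factor *Lyl1* and its adaptor *Lmo2*, the homeobox factors *Hhex* and *Meis1*, the zinc finger factors *Bcl11a* and *Gfi1b*, and the MADS-box factor *Mef2c*. They were taken as a named list, 9 of the 20722 protein-coding genes on the chromosomes covered by the peak lists. All ATAC-seq peaks inside a gene body or within 50 kb on either side of it (mm10, GENCODE M21) were counted as belonging to its window, so the assignment rests on distance and a peak can belong to the regulation of a neighbour. When the peaks of all stages were merged wherever they shared at least 1 bp, the 9 windows held 278 of 185978 regions.

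ATAC-seq uses a transposase that inserts sequencing adapters into accessible DNA, and a peak is a place where such insertions pile up. The libraries came from thymocytes of 4 wild type C57BL/6J mice that were 9 weeks old, sorted from each mouse into 4 stages. DN cells carried neither CD4 nor CD8 nor surface CD3, DP cells carried CD4 and CD8 together, SP4 cells carried CD4 and CD3, and SP8 cells carried CD8 and CD3, and in every gate cells with markers of the erythroid, B, myeloid, dendritic, natural killer and gamma delta T lineages were excluded. The reads of the 4 mice were pooled before peaks were called, giving 1 list per stage with 150139 (DN), 107110 (DP), 115074 (SP4) and 104411 (SP8) peaks at 5% FDR. No value below therefore has a replicate error and no stage was tested against another. The intervals given are 95% intervals (exact Poisson for counts, Wilson for shares) that cover counting error only.

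T cells arise from multipotent progenitors that enter the thymus and commit to the T lineage within the DN compartment. The progenitors bring with them a set of regulators shared with stem, myeloid and B cell precursors, which is known to be shut down around commitment, while Notch signalling and factors such as TCF-1, GATA-3 and Bcl11b establish the T cell program. Several of the shut-down genes, among them *Lyl1*, *Lmo2*, *Mef2c* and *Erg*, are known oncogenes of immature T cell leukaemia when they stay active. The DN gate was not divided by CD44 and CD25, so it held uncommitted and committed cells together, and a low peak cannot be told apart from a strong one present in few cells.

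Thymocyte genes had peaks in every list. Of 10 thymocyte markers, 10 had a DN peak within 500 bp of the transcription start site (TSS), against 65.3% of all protein-coding genes. Peaks of all 4 stages lay there at 9 of them, against 55.8% of all protein-coding genes. These markers therefore did not separate the DN list from the later ones. The exception was *Dntt*, which encodes the terminal transferase of early thymocytes and had TSS peaks at DN and DP. Of the markers of other cell types, a DN peak at the TSS with none at the later stages, found at 4.25% of all protein-coding genes, was present at *Csf1r*, *Csf3r* and *Lyz2* (3 of 10 myeloid genes), at *Pf4* and *Selp* (2 of 10 megakaryocyte genes), at *Itgax* (1 of 10 dendritic cell genes) and at *Igll1* (1 of 10 B cell genes), and at none of the erythroid, endothelial, natural killer or thymic epithelial and fibroblast genes. It was also present at 3 of 10 neuronal control genes. Of the same markers, TSS peaks of all 4 stages were found at *Ebf1*, *Cd79b* and *Blnk* (3 of 10 B cell genes). They were also found at *Itgam* and *Cd14* (2 of 10 myeloid genes) and at *Gp9* (1 of 10 megakaryocyte genes). Dendritic cell genes had them at 5 of 10, natural killer and innate lymphoid genes at 6 of 10 and erythroid genes at 2 of 7. Thymic epithelial and fibroblast genes had them at 2 of 10, endothelial genes at 1 of 10, and hepatocyte and neuronal control genes at 0 of 10 each. *Pax5* and *Cd79a*, *Mpo* and *Elane*, and *Itga2b*, further markers of B cells, granulocyte precursors and megakaryocytes, had no TSS peak at any stage. The part of other cell types in the results below was not tested.

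The 9 windows together held 254 peaks of the DN list (224 to 287) and 158 of the DP list (134 to 185). The SP4 list had 155 (132 to 181) and the SP8 list 128 (107 to 152). Per 1000 peaks of the respective list, this was 1.69, 1.48, 1.35 and 1.23, so the windows together took the largest part of the DN list and the smallest of the SP8 list. The ratio of DN to later peaks in the windows was 1.61 for DP, 1.64 for SP4 and 1.98 for SP8, where the lengths of the lists gave 1.40, 1.30 and 1.44. Single genes exceeded the ratio of the lists at 6 of 9 for DP, 8 for SP4 and 7 for SP8. Per 1000 peaks of the list, DN was below DP at *Lyl1* (0.193 against 0.233), *Erg* (0.386 against 0.448) and *Gfi1b* (0.147 against 0.187). At *Mef2c* it was below SP8 (0.153 against 0.163). All 9 genes had more DN peaks than peaks of any other stage, against 63.5% of all protein-coding genes and 76.1% of those with at least 20 regions. When each list was cut to its 104411 peaks of lowest q-value, 6 of the 9 genes still had most peaks at DN, against 22% of all protein-coding genes. The others were *Lyl1*, *Erg* and *Mef2c*. The 22% includes genes with few regions, and the share among genes with at least 20 regions was not computed for the cut lists.

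**Figure D1:**
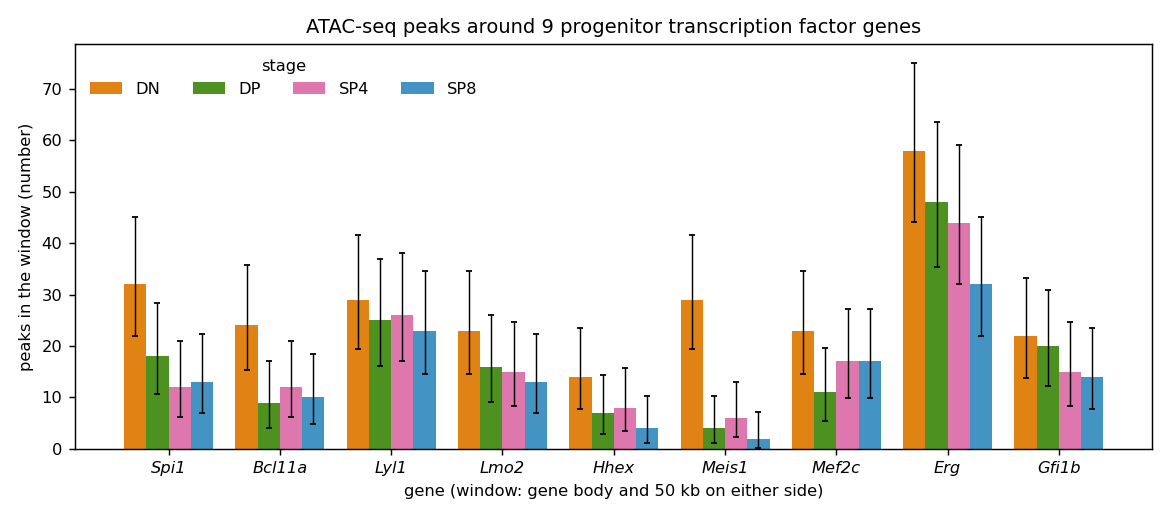
Number of ATAC-seq peaks (y axis) in the window of each gene (x axis) for the 4 stages, with exact Poisson intervals as error bars. The DN bar is the tallest for every gene, *Meis1* had 29 peaks at DN and 2 at SP8, and *Lyl1* differs least between stages.

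Of the 278 regions, 89 were called at DN alone (DN-only). This was 32.0% (26.8 to 37.7), against 21.7% of all regions. Regions called at all 4 stages numbered 92, or 33.1% (27.8 to 38.8) against 34.1% of all regions, so the share of constantly called regions was near the background. Called at DN and at neither SP stage were 111 regions (39.9% against 27.3%), and 36 were not called at DN (12.9% against 24.3%). Regions of the later stages were few: 10 were called at DP alone (3.6% against 5.17%), 13 at SP4 alone (4.68% against 7.39%), 4 at SP8 alone (1.44% against 4.21%), 5 at SP4 and SP8 (1.8% against 3.82%), and all sets without DN and DP together made up 7.91% against 15.4%. The DN-only share was not even over the genes. It was 80.0% at *Meis1*, 46.4% at *Bcl11a*, 46.2% at *Hhex*, 34.4% at *Spi1*, 30.8% at *Lmo2* and 26.1% at *Mef2c*, and below the background at *Lyl1* (18.2%), *Erg* (17.6%) and *Gfi1b* (12%). *Meis1* alone supplied 24 of the 89 DN-only regions, and without it the share was 26.2% (65 of 248). No interval was computed for that share, so an excess over the 21.7% of all regions was not shown without *Meis1*. The same measure over genes that thymocytes do not use was at least as high. For 10 neuronal control genes it was 37.7% (31.2 to 44.6) and for 10 hepatocyte control genes 34.7% (25.9 to 44.7), so a raised DN-only share was not particular to progenitor factor genes.

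**Figure D2:**
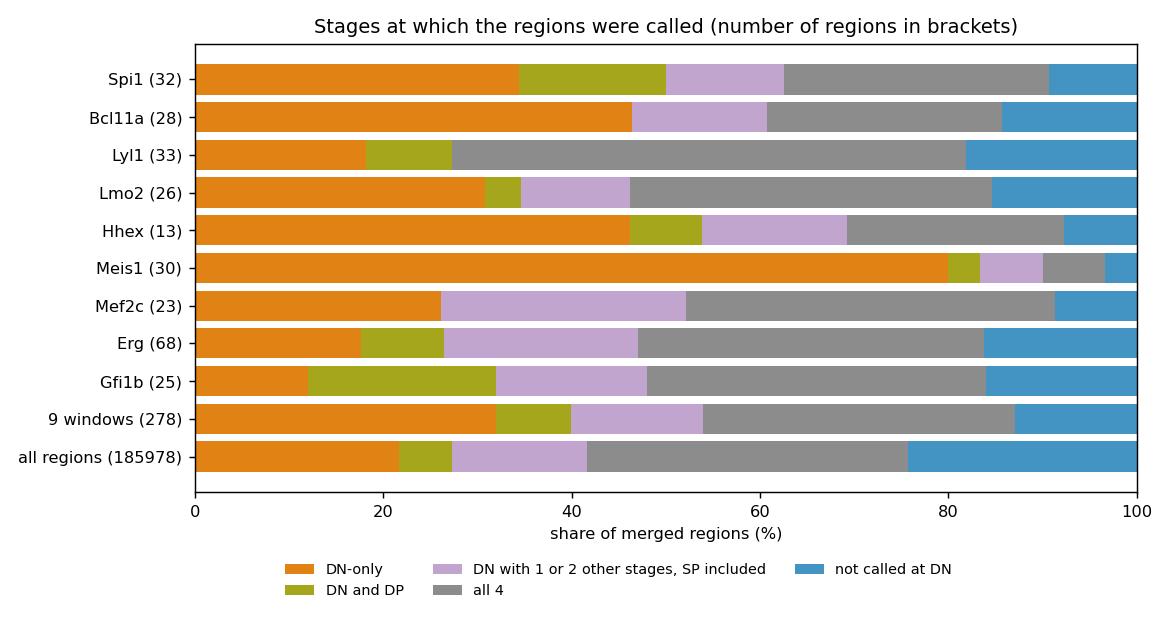
Share of merged regions (x axis, percent) by set of stages with a call, for each gene, the 9 windows together and all regions. The orange part, called at DN alone, runs from 80.0% at *Meis1* to 12% at *Gfi1b*, against 21.7% of all regions in the bottom bar.

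Height was expressed as the percentile of a peak's fold enrichment within the list of its stage. The DN list is the longest, and its percentiles run higher: all regions called at all 4 stages had a median of 73.5 in the DN list and of 68.2 (DP), 69.4 (SP4) and 67.1 (SP8) in the others. Regions called at all 4 stages were therefore compared between stages by their rank percentile among the 63369 such regions, which are the same in each list. By this rank, 40 of the 92 constant regions of the windows stood higher at DN than at DP (43.5% against 45.3% of all such regions), 44 higher than at SP4 (47.8% against 46.8%) and 41 higher than at SP8 (44.6% against 44.6%). By percentile within the whole list the counts were 51, 51 and 45, against 57.5%, 55.2% and 56.7% of all such regions. On the common rank, constant regions of the windows were together near the background. For each gene, the TSS region, the region highest at DN among those without an SP peak and the region highest at an SP stage among those without a DN peak were named by rule, and every other region was named after its values were seen.

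The median DN-only region of the windows stood at the 29.2nd percentile of the DN list, and that of all DN-only regions at the 30.2nd. Above the 75th percentile were 7 of 89, or 7.87%, against 5.5% of all DN-only regions. These 7 were 4 regions at *Meis1*, 2 at *Spi1* and 1 at *Lyl1*, so most regions that were called at DN alone were low peaks and the high ones lay at few genes. DN-only regions had a median width of 157 bp, and regions called at all 4 stages one of 473 bp.

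**Figure D3:**
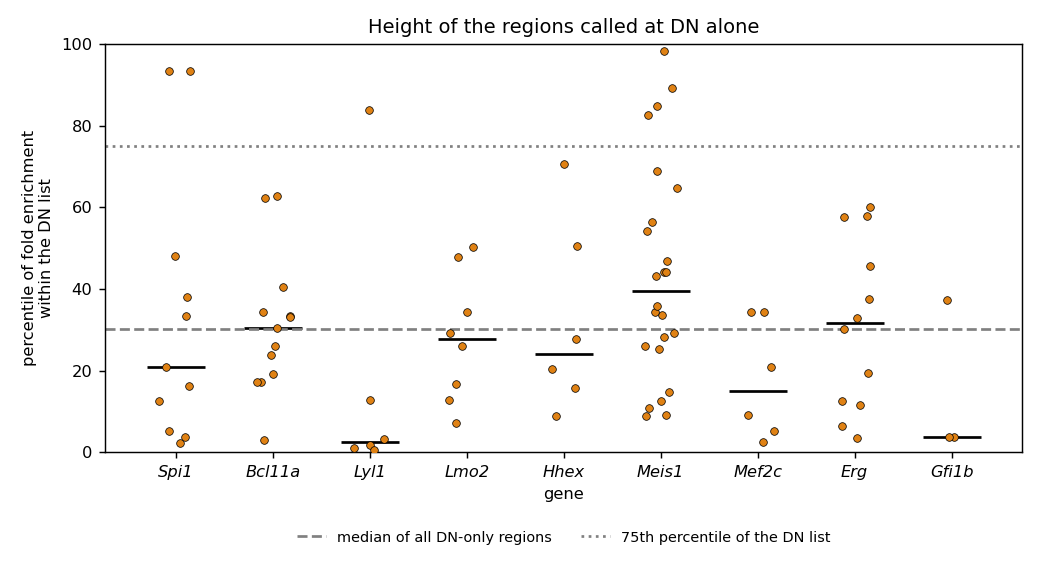
Percentile of fold enrichment within the DN list (y axis) of each region called at DN alone (points), by gene (x axis), with the median of each gene as a black bar. The points above the dotted line at the 75th percentile are the 4 of *Meis1*, 2 of *Spi1* and 1 of *Lyl1*, and the dashed line marks the median of all DN-only regions, 30.2.

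*Meis1*, a homeobox partner of HOX proteins that is known to sustain haematopoietic stem cells, differed most between stages. Its 239 kb window held 29 peaks at DN, 4 at DP and 6 and 2 at the SP4 and SP8 stages. The intervals were 19.4 to 41.6 for DN, 1.09 to 10.2 for DP, 2.20 to 13.1 for SP4 and 0.242 to 7.22 for SP8. They do not allow for the unlike lengths of the lists, and were not set beside those of all genes. Per 1000 peaks of the respective list, the counts were 0.193 (DN), 0.0373 (DP), 0.0521 (SP4) and 0.0192 (SP8). Of 30 regions, 24 were called at DN alone and 2 at all 4 stages, and among 9708 protein-coding genes with at least 20 regions, 0.124% had a DN-only share as high. The 2 constant regions of *Meis1* were the TSS region and an intronic region 61 kb downstream. The TSS region stood at the 75.8th percentile at DN, the 51.0th at DP, the 28.5th at SP4 and the 39.1st at SP8, and the intronic region at the 92.7th, 36.1st, 66.9th and 11.3th. Both were highest at DN, also by rank among constant regions (DN 53.7, DP 29.4, SP4 11.9 and SP8 19.4 for the TSS region). The region highest at an SP stage without a DN peak was an SP4 peak at the 4.08th percentile, 147 kb downstream. The promoter was thus called at every stage, while most other regions of the window were called at DN alone.

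The 4 high DN-only regions of *Meis1* lay in its introns. The highest, 35.0 kb downstream of the TSS, had a fold enrichment of 25.9 and stood at the 98.3rd percentile of the DN list, with no peak at DP, SP4 or SP8. The others lay 69.9, 93.8 and 123 kb downstream, with fold enrichments of 15.7, 12.4 and 13.3. A further 8 DN-only regions clustered just beyond the 3′ end of the gene, and these were low, from the 8.85th to the 43.1st percentile. The 200 bp around the 4 high summits are printed as the high DN-only regions of the gene with the largest DN-only share (mm10, + strand, 5′ to 3′, in order of distance from the TSS). Capitals mark exact matches, on either strand, to 9 motifs. These were the ETS motif AGGAAG, the PU.1 motif GAGGAAGT (which contains the ETS motif), the E-box motif CAGCTG and its variant CAGGTG, the RUNX motif TGTGGTT, the GATA factor motif AGATAA, the MEIS motif TGACAG, the shared TCF7 and LEF1 motif CTTTGAA, and a CTCF consensus.
Meis1, chr11:18983916-18984115: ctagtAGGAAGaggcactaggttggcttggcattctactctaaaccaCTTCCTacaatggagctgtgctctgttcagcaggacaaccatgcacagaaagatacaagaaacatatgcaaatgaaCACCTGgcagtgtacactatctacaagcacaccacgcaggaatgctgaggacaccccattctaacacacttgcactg
Meis1, chr11:18948978-18949177: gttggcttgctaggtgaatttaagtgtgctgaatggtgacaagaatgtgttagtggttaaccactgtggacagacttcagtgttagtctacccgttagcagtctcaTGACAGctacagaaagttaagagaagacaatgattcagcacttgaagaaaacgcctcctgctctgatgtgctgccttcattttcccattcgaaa
Meis1, chr11:18925058-18925257: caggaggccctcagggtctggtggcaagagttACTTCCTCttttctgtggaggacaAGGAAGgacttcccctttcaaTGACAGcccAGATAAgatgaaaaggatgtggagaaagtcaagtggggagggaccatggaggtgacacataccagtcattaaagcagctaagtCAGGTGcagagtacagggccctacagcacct
Meis1, chr11:18896308-18896507: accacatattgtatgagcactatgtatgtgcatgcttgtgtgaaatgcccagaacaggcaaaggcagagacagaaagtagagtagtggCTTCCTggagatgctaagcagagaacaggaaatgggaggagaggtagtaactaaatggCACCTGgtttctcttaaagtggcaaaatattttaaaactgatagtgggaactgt
The first held 2 ETS matches and a CAGGTG match. The third held 6 matches, among them a PU.1 match. A match is a description of letters and shows no binding.

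**Figure D4:**
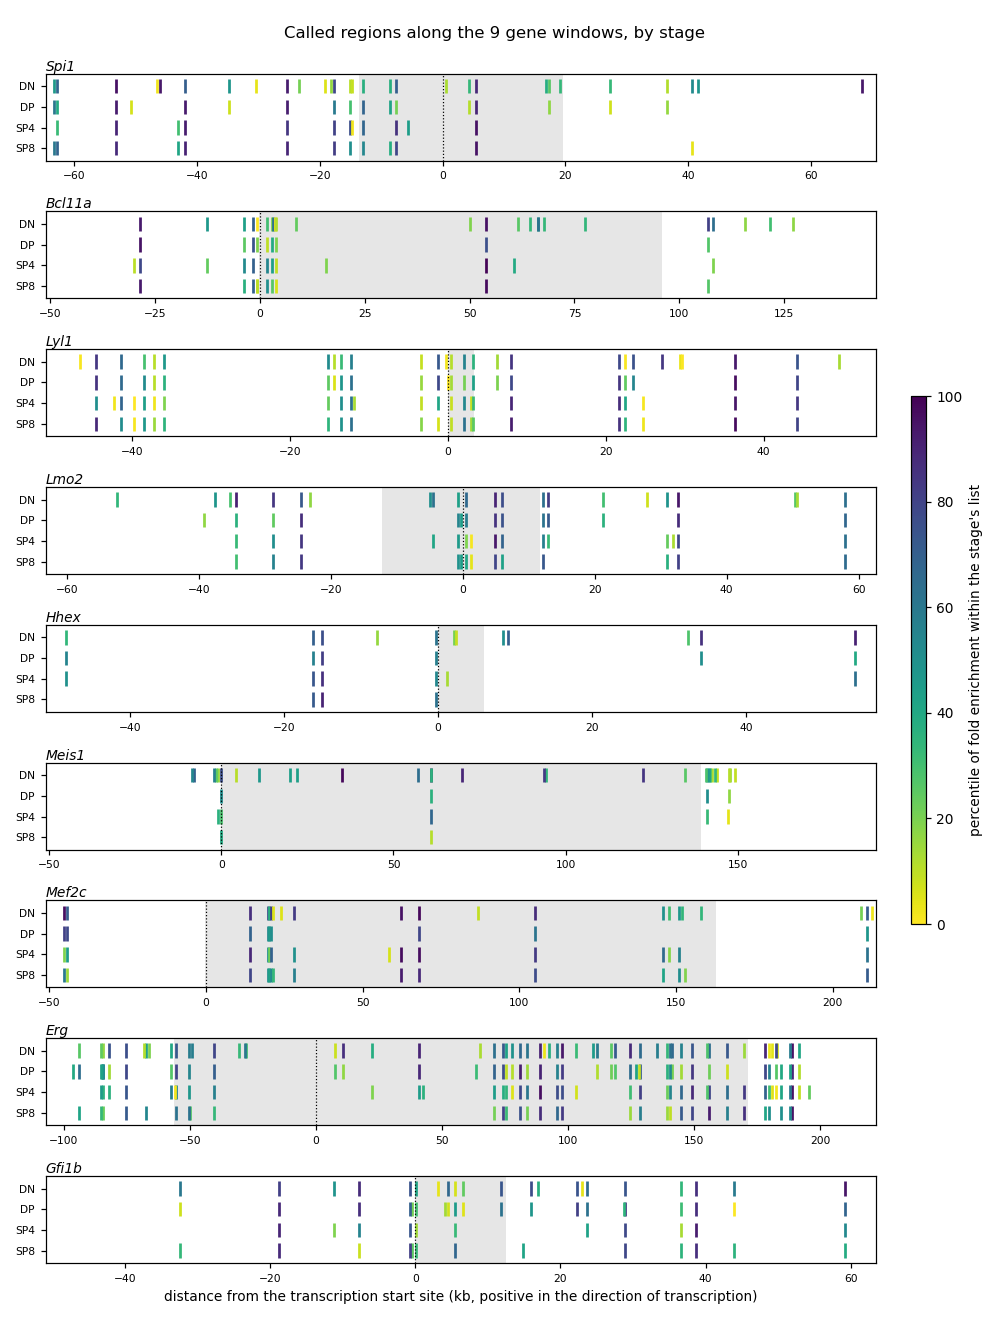
Regions called at each stage (rows) along the window of each gene, by distance of the summit from the TSS in kb (x axis, positive in the direction of transcription), with the gene body shaded, the TSS dotted and the colour giving the percentile of fold enrichment within the stage's list. The *Meis1* panel is filled in the DN row and nearly empty in the other rows, while the *Lyl1* panel shows much the same marks in all 4 rows.

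*Spi1* encodes PU.1, which directs myeloid and B cell fates and is known to be silenced as T cell progenitors commit. Its window held 32 peaks at DN, 18 at DP and 12 and 13 at the SP4 and SP8 stages. Of 32 regions, 11 were DN-only, 5 were shared by DN and DP and 9 were called at all 4 stages. No peak of any stage lay within 500 bp of the TSS of its longest coding transcript, and the nearest region was a DN-only one 519 bp away, at the 12.6th percentile. The intronic region 5.49 kb downstream was called at all 4 stages with high peaks, at the 88.3rd percentile at DN, the 89.8th at DP, the 95.5th at SP4 and the 95th at SP8. Of the 9 constant regions, 2 ranked higher at DN than at SP8, against 44.6% of all such regions. Constant regions of this window thus mostly ranked higher at SP8, while the regions that differed by call were mostly those of DN. The highest region called at DN and at neither SP stage lay 46.1 kb upstream (18.9-fold, 93.5th percentile), and a second DN-only region of like height (18.9-fold) lay 68.3 kb downstream inside *Madd*. Both are far from the promoter, and the TSSs of *Rapsn*, *Psmc3*, *Slc39a13* and *Mybpc3* also lie in the window. The region highest at an SP stage without a DN peak was an SP4 peak 5.59 kb upstream, at the 44.7th percentile.

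PU.1 is known to be controlled by regulatory sequence well upstream of its promoter. A region 13 kb upstream, chosen after its values were seen, was called at all 4 stages, at the 36.8th percentile at DN, the 68.1st at DP, the 67.5th at SP4 and the 53.7th at SP8. It was lowest at DN, also by rank among constant regions (13.5 against 49.9, 47.4 and 33.2). Whether it is the known element was not examined. Its 200 bp around the DN summit are printed beside those of the high DN-only region, the pair showing the constant and the stage-restricted site of the locus.
Spi1, constant region, chr2:91082994-91083193: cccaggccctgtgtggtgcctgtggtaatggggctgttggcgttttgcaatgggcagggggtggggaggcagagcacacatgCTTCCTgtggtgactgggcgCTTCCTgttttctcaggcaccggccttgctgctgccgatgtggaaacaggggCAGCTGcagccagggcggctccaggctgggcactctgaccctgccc
Spi1, DN-only region, chr2:91049888-91050087: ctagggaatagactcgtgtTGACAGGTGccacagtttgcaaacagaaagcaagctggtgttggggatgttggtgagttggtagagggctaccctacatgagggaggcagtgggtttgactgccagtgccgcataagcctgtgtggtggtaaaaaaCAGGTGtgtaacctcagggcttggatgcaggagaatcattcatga
The constant site held 2 ETS matches and a CAGCTG match. The DN-only site held 2 CAGGTG matches, the first of which overlaps a MEIS match.

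*Erg*, an ETS factor of stem cells, had the widest window (327 kb) and most regions, 68. The count was 58 peaks at DN, 48 at DP and 44 and 32 at the SP4 and SP8 stages. Of its regions 12 were DN-only, 25 were called at all 4 stages, 7 at DN, DP and SP4 (10.3% against 3.14% of all regions) and 6 at DN and DP. *Erg* thus kept most of its DN peaks at DP and SP4 and had fewest at SP8, where the interval (21.9 to 45.2) still touched that of DN (44 to 75). Its longest coding transcript had no peak within 500 bp of the TSS, the nearest region lying 7403 bp away, but 3 of its 6 annotated start sites had peaks of all 4 stages, the nearest of them 71.0 kb downstream. The highest region at DN with no SP peak lay 10.9 kb downstream in an intron, at the 86.7th percentile at DN and the 16.6th at DP. Of the regions called at an SP stage and not at DN, the highest lay in the downstream flank at 184 kb (39.5th percentile at DP, 41.2nd at SP4, 50.1st at SP8). A region at the 3′ end of the gene, 170 kb downstream and named after its values were seen, was low at DN (15.2nd percentile), not called at DP, and high at SP4 (83.4th) and SP8 (86.3rd). *Erg* therefore held single regions that were higher in SP cells, although its peaks were most numerous at DN by raw count. Per 1000 peaks of the respective list, the counts were 0.386 (DN), 0.448 (DP), 0.382 (SP4) and 0.306 (SP8), highest at DP. With the lists cut to equal length, the window held 42 peaks at DN and 47 at DP.

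*Lyl1*, a partner of E proteins, and *Lmo2*, the LIM-only protein that joins such factors to GATA factors, act in 1 complex in progenitors. *Lyl1* held 29 peaks at DN, 25 at DP and 26 and 23 at the SP4 and SP8 stages, the most even counts of the 9 genes, and 18 of its 33 regions (54.5%) were called at all 4 stages. It is a gene of 3.26 kb whose window includes the TSSs of *Ier2*, *Nacc1*, *Trmt1* and *G430095P16Rik*, and 6 of its regions lay on the TSS of another gene. Its own TSS had peaks of all 4 stages within 500 bp, all low, from the 0.622nd to the 13.6th percentile, and the constant one stood at 11.1 (DN), 13.6 (DP), 8.54 (SP4) and 9.39 (SP8). A region 1.32 kb upstream of the TSS, named after its values were seen, was lower in SP cells: it stood at the 72.4th percentile at DN, the 78.0th at DP, the 41.1st at SP4 and the 6.31st at SP8. Another, 2.08 kb downstream, was lowest at DP and highest at SP8 (DN 55.1, DP 20.7, SP4 53.4 and SP8 62.4). Of the 18 constant regions, 6 ranked higher at DN than at SP8, 33.3% against 44.6% of all such regions, and 8 ranked lowest at DN, 44.4% against 32.4%. Its highest DN-only region (12.9-fold, 83.9th percentile) lay 27.1 kb downstream inside *Nfix*. The region highest at an SP stage without a DN peak lay 2.93 kb downstream and was low, at the 8.91st percentile at SP4 and the 14.2nd at SP8.

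*Lmo2* held 23 peaks at DN, 16 at DP and 15 and 13 at the SP4 and SP8 stages in 26 regions, of which 8 were DN-only and 10 constant. The region over the TSS was called at all 4 stages, at the 66.1st percentile at DN, the 58.1st at DP, the 19.3rd at SP4 and the 41.2nd at SP8. It was highest at DN, while a second constant region 0.673 kb upstream was lowest at DN (DN 43.4, DP 54.4, SP4 46.0 and SP8 49.1). By rank, 4 of the 10 constant regions were highest at DN, against 24.3% of all constant regions. One of them, 34.3 kb upstream, stood at the 90.7th percentile at DN and at the 36.1st, 32.6th and 30.3rd at DP, SP4 and SP8. The region highest at DN with no SP peak, 5.04 kb upstream in an intron of a longer transcript, stood at the 50.4th percentile. The highest at an SP stage without a DN peak lay 334 bp upstream, close to the TSS, at the 44.4th percentile at DP and the 44.7th at SP8. At *Lmo2* the stages therefore differed in height within shared regions as well as in calls.

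*Hhex*, a homeobox repressor of progenitors, had the fewest regions, 13, with 14 peaks at DN, 7 at DP and 8 and 4 at the SP4 and SP8 stages. Of them 6 were DN-only and 3 constant, and no other coding gene starts in its window. The TSS region spanned 1608 bp and hardly changed, from the 61.3rd percentile at DN to the 56.7th at DP, 53.3rd at SP4 and 62.3rd at SP8. The region highest at DN without an SP peak lay 34.1 kb downstream, at the 85.6th percentile at DN and the 51.0th at DP. A region 54.2 kb downstream stood at the 91.0th at DN, the 39.8th at DP and the 63.6th at SP4, with no SP8 peak. The 1 region without a DN peak was called at SP4 alone, 1.09 kb downstream, at the 13.1st percentile.

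*Bcl11a*, a repressor needed for B cell development, held 24 peaks at DN, 9 at DP and 12 and 10 at the SP4 and SP8 stages. Of 28 regions 13 were DN-only, 7 constant and none shared by DN and DP alone. No peak lay within 500 bp of the TSS, although the nearest region was 514 bp away and a second annotated start site 2.50 kb downstream had peaks of all 4 stages. All 13 DN-only regions were below the 75th percentile. The highest, 66.4 kb downstream in an intron, had a fold enrichment of 7.25 (62.8th percentile) and lay in a group of 5 DN-only regions that lay 61.5 to 67.6 kb downstream. The tallest peak of the window was constant: 53.9 kb downstream, a region stood at the 95.4th percentile at DN, 75.7th at DP, 98.9th at SP4 and 97.5th at SP8. The region highest at an SP stage without a DN peak was an SP4 peak 60.6 kb downstream, at the 39.4th percentile. The DN-only stretch is printed as the top of that group.
Bcl11a, chr11:24144491-24144690: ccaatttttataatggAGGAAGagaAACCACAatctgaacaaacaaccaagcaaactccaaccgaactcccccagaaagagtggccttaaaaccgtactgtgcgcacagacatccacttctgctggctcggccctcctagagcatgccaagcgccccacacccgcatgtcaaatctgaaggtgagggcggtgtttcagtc
It held an ETS match and a RUNX match.

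*Gfi1b*, a transcriptional repressor that acts in the erythroid and megakaryocytic lineages, held 22 peaks at DN, 20 at DP and 15 and 14 at the SP4 and SP8 stages. Per 1000 peaks of the respective list, this was 0.147 (DN), 0.187 (DP), 0.130 (SP4) and 0.134 (SP8), so the density was highest at DP. Of 25 regions 3 were DN-only, the lowest share of the 9 genes, but 5 of the 25 were shared by DN and DP alone, where 5.59% of all regions were. The region 110 bp from the TSS was called at all 4 stages, at the 40.7th percentile at DN, the 29.8th at DP, the 14.3rd at SP4 and the 32.3rd at SP8. Of the 5 shared by DN and DP, the one that was highest at DN lay 16 kb downstream (76.6th percentile at DN, 48.0th at DP), and one 22.3 kb downstream stood at the 74.0th at DN and the 80.7th at DP. The region of *Gfi1b* that was highest at an SP stage without a DN peak lay 14.8 kb downstream, at the 41.4th percentile at SP8. The region 16 kb downstream is printed because it carries a match to AGATAA, the GATA motif (in reverse), so the match says nothing on the locus. In the 200 bp around the summit of the regions named by the same rule at the other genes, no GATA match was found. Those of *Lmo2* and *Erg* held no match to any motif.
Gfi1b, chr2:28605891-28606090: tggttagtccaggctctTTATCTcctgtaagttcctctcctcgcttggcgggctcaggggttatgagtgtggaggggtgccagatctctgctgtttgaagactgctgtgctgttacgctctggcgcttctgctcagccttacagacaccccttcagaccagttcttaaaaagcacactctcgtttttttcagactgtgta
Over all windows, 22 regions were shared by DN and DP alone, and 16 of them stood at a higher percentile at DN, 72.7% against 67.3% of all such regions.

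*Mef2c*, a MADS-box factor of lymphoid progenitors that is also used in B cells and muscle, kept more peaks at the SP stages than at DP. It held 23 peaks at DN, 11 at DP and 17 and 17 at the SP4 and SP8 stages, so that the DP stage was the lowest, as it was at *Bcl11a*. Of 23 regions 6 were DN-only, 9 were constant, and 4 were called at DN, SP4 and SP8 but not at DP, 17.4% against 4.05% of all regions. Called at DN and an SP stage but not at DP were 6 of the 20 such regions of all windows, a set that made up 7.19% of the 278 regions against 8.96% of all. The highest of these 4, an intronic region 62.1 kb downstream chosen after its values were seen, was among the tallest of its lists: the fold enrichment was 21.3 at DN (95.7th percentile), 25.6 at SP4 (97.1st) and 20.6 at SP8 (92.6th), with no DP peak. In a second one, 27.9 kb downstream, the percentiles were 82.7 at DN, 49.6 at SP4 and 56.8 at SP8. Its constant regions were mostly higher at DN than at each later stage. Of the 9, 7 ranked higher at DN than at DP, where 45.3% of all constant regions did, 8 higher than at SP4, against 46.8%, and 7 higher than at SP8, against 44.6%. The site without a DP peak is printed as the highest region of the windows that was called at every stage but DP.
Mef2c, chr13:83566260-83566459: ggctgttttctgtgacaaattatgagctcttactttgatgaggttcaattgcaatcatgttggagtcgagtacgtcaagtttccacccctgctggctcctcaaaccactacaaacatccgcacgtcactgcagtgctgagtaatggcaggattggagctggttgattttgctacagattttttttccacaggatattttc
None of the motifs searched for matched in it. Its DN-only regions were low, the highest of them at the 34.3rd percentile, and the highest region at an SP stage without a DN peak was an SP8 peak 153 kb downstream, at the 19.0th percentile. No peak lay within 500 bp of the TSS of the longest coding transcript, although 13 of its 27 annotated start sites had peaks of all 4 stages.

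Across the 9 genes, the presence of a call at the TSS did not separate the stages, although the heights differed at *Meis1* and *Lmo2* as given above. *Lyl1*, *Lmo2*, *Hhex*, *Meis1* and *Gfi1b* had peaks of all 4 stages within 500 bp of the TSS, 5 of 9 against 55.8% of all protein-coding genes, and the other 4 had none at any stage, against 33%. None of the 9 had a TSS peak at DN alone, against 4.25% of all protein-coding genes. Of the 89 DN-only regions 33 lay in introns, 9 touched exons, 19 lay in the upstream and 28 in the downstream flank, and none lay on the TSS of another coding gene. Of the 92 constant regions 10 did. These positions were not counted over all DN-only or all constant regions, so they show no trait of the 9 windows. The authors found their ubiquitous cluster of regions to be nearer to TSSs than their other clusters.

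In the 100 bp around the DN summit, the 89 DN-only regions held much the same motifs as all 40393 DN-only regions. ETS matches were present in 23.6% (16 to 33.4) against 24.5%, CAGGTG in 20.2% against 19.1%, CAGCTG in 12.4% against 15.8%, RUNX in 6.74% against 8.62%, TCF7 and LEF1 in 3.37% against 1.93%, and PU.1 and CTCF in 1.12% each against 2.68% and 2.03%. The MEIS motif was present in 15 regions, 16.9% (10.5 to 26.0) against 10.5%, 4 of them at *Meis1* and 4 at *Bcl11a*. The GATA motif was present in 7, 7.87% (3.86 to 15.4) against 3.48%, 4 of them at *Erg*. In 200 bp, the length printed above, the shares of all DN-only regions were 38.7% for ETS, 29.1% for CAGGTG, 23.7% for CAGCTG, 18.4% for MEIS, 14.5% for RUNX, 8.45% for GATA and 4.47% for PU.1, and the 89 regions had 12.4% (7.04 to 20.8) for GATA and 20.2% (13.2 to 29.7) for MEIS. The MEIS interval included the background at 100 bp and at 200 bp, and the GATA interval lay just above it at 100 bp and included it at 200 bp. The median GC content around the summits was 54% in the windows and 53% in all DN-only regions.

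The edge of a window 50 kb from the gene is arbitrary. Over the 18 edges, the nearest region inside lay a median 4037 bp from the edge, and 8 of these 18 regions were DN-only. The nearest region outside lay a median 5378 bp from it, and 5 of 18 were DN-only. The DN-only share was 32.0% in the windows and 21.7% over all regions. The counts at the edges are small, and a change of the share at the edge was not tested.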

How the data were processed

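ATAC-seq libraries of DN, DP, SP4 and SP8 thymocytes from 4 mice (16 libraries) were processed by the authors, with BWA as the aligner (mm10), Picard to drop duplicates, filters for unique, properly paired and high-quality alignments, down-sampling to the median library depth, pooling of the mice of each stage and MACS2 for peaks. The submitters' processing notes name MACS2 and mm10. The deposited lists give the start, end and summit of each peak, the fold enrichment at the summit as MACS2 computed it for the authors (a ratio over local background), and the −log10 q-value the authors' caller wrote. The caller's score and −log10 p columns were not used. The depth behind each list is not in the files used here, although the authors report a narrow range of pooled depths over the stages. Pooling hides differences between mice, and a region without a peak may hold signal below the threshold, so a missing call is not a closed site. No column belonged to another series (0 columns).

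Peaks wholly inside a gene body or 50 kb on either side (GENCODE M21) were counted, and peaks of the 4 lists were merged at 1 bp of overlap. The background was the same measure over all merged regions or over 20722 protein-coding genes. The TSS was that of the longest protein-coding transcript, with 500 bp on either side. Sequence came from the RefSeq copy of GRCm38, which has the coordinates of mm10, and positions count from 1. Motifs were 9 exact consensus sequences, which are stricter than weight matrices. The 9 genes and all lists of genes were chosen with earlier results of these data known. For each gene the text names the TSS region, the region with the highest DN fold enrichment among those without an SP peak, and the highest at an SP stage without a DN peak, and every other region was chosen after its values were seen. Heights are percentiles of fold enrichment within a list, and regions called at all 4 stages were compared by rank among these regions alone. Python 3.11.15, pandas 2.3.3 and scipy 1.17.1 were used. On simulated lists with known answers, 20000 of 20000 regions received their true set of stages, 300 of 300 window counts and 900 of 900 planted motifs were recovered. The closing section gives the alternatives tried (window, q-value, equal list lengths, gene models, neighbouring TSSs, genes left out, motif window).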

Additional observations from a re-analysis of the deposited data

How the results depend on the processing

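The share of regions called at all 4 stages kept within its interval under every alternative tried, and the DN-only share did under all but those named here. With each list cut to the same number of peaks, the DN-only share was 18.3%, against 11.1% of all regions under the same setting. Without *Meis1*, an alternative chosen after seeing the data, it was 26.2% (65 of 248), against 21.7% of all regions, and no interval was computed for it. The numbers of peaks depend by construction on the width of the window: with 10 kb on either side there were 165 (DN), 92 (DP), 94 (SP4) and 75 (SP8), with 100 kb 384 (DN), 238 (SP4) and 194 (SP8), and in the gene bodies alone 117 (DN), 67 (DP), 72 (SP4) and 57 (SP8), while the DN-only share moved between 32.3% and 35.0%. With any annotated TSS in place of that of the longest coding transcript, 8 of 9 genes had peaks of all 4 stages, the exception being *Spi1*. CAGGTG matches were present in 31.5% (22.8 to 41.7) of the DN-only regions when the whole peak was searched. Of all DN-only regions, 28.2% held 1 under the same setting, so the interval included the background. With percentiles within the whole list in place of ranks, an alternative added after seeing the data, 51 (DP), 51 (SP4) and 45 (SP8) of the 92 constant regions stood higher at DN. Of 84 alternative values in all, 69 stayed within 1.5 times the count or within the interval of the share. No paired analysis was possible because the reads of the 4 mice of a stage were pooled before peaks were called, and for the same reason no mouse could be left out. Depth limits what a missing peak means: a low region can drop below the threshold at a stage without being closed, and the DN-only regions were mostly low.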

Other observations

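A list of 15 other regulators of blood progenitors, of which 14 were found among the genes examined, varied as much as the 9 genes. Their windows held 597 regions, 163 of them DN-only (27.3%, 23.9 to 31.0), against 21.7% of all regions. *Prdm16* supplied 30 of the 163 and *Mecom* 23, and the list was not recounted without them. The share was 74.2% at *Mecom* and 66.7% at *Prdm16*, related zinc finger factors of stem cells, 61.9% at *Cebpa*, the leading factor of myeloid differentiation, and 39.1% at *Gata2*. It was 9.52% at *Tal1*, the partner of *Lmo2*, 9.33% at *Fli1*, the ETS factor most like *Erg*, and 14.6% at *Myb*. *Mecom* had a TSS peak at DN and at no later stage, as no gene of the 9 did and 4.25% of all protein-coding genes did. TSS peaks of all 4 stages were present at 10 of the 14, against 55.8% of all protein-coding genes.

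The windows of 12 T lineage factors held 550 peaks at DN, 508 at DP and 549 and 531 at the SP4 and SP8 stages. Per 1000 peaks of the respective list this was 3.66, 4.74, 4.77 and 5.09, so the density was lowest at DN although the count was not. Their windows held 792 regions, of which 83 were DN-only (10.5%, 8.53 to 12.8), against 21.7% of all regions. Of the 12 genes, 3 had most peaks at DN, against 63.5% of all protein-coding genes. *Satb1*, an organiser of thymocyte chromatin, had 2.44% DN-only regions with 35 peaks at DN and 64 at SP4. *Tcf7*, which encodes TCF-1, had 3.28% with 40 peaks at DN and 48 at DP. The highest shares were at *Notch1* (24.6%), used before and during commitment, and at the E protein genes *Tcf3* (23.1%) and *Tcf12* (20.5%), the 3 genes with most peaks at DN.

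Among 9677 other genes with at least 20 regions, those whose regions were spread over the 15 sets of stages most like the 9 windows together were *Zfpm1*, *Plekha7* and *Prkar1b*, with total variation distances of 0.0788, 0.0869 and 0.0926 where the median of all candidates was 0.310. *Zfpm1* encodes FOG-1, a cofactor of GATA factors.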
